A study of Mus musculus with 6 samples.

Results

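The proximal expression block of mouse chromosome 8 is a run of neighbouring genes whose RNA levels stood apart together in single libraries of the 2208L tumour. Its members were the protein-coding genes that start between 11.49 and 31.17 Mb (chr8:11490000-31170000, GRCm38), without Fgfr1, Plat and the ribosomal protein and respiratory chain genes, of which Mrps31 was the only one in this stretch. This gave 185 of the 54532 genes in the deposited table. The block was chosen because its genes deviated together from the mean of all 6 libraries, that is, the members were chosen by these measured deviations, and the deviations below describe that choice and carry no test. Of the 185 members, 77 passed the filter on low counts and 108 did not.

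RNA was sequenced from cancer cells of Balb/c mice that carried the mammary tumour 2208L; no treatment was given, and the labels name no age or genetic change. In 3 libraries, called CTC, the cells had circulated in the blood and were then propagated. The other 3, called PT, came from the primary tumour, which was dissociated and enriched for tumour cells. Each PT library is matched to the CTC library of the same number. The labels do not name the mouse, and the series' design text was read as 1 mouse per number. Only the CTC cells are described as propagated, so handling and group cannot be told apart, and the number of passages or clones is not stated in the labels. Each library held between 23845953 and 27897320 counts. In bulk RNA, fewer cells of a type and less RNA per cell cannot be told apart. The 4 epithelial markers Krt8, Krt18, Epcam and Cdh1 summed to between 1971 CPM (read counts scaled to the library size, with TMM factors) and 4777 CPM per library, lowest in CTC replicate 3, and stood at 3596 CPM in PT replicate 3. Ptprc of leukocytes had at most 7 counts in any library. Of the macrophage and neutrophil markers, Adgre1, C1qa and Ly6g had 0 counts, for which 3 counts, between 0.108 and 0.126 CPM, is the upper limit. Lyz2 had 1 count, in CTC replicate 3. The neutrophil marker S100a9 had reads in most libraries, up to 26 counts in PT replicate 2, and the 2 neutrophil markers summed to at most 1.12 CPM. The 3 fibroblast markers summed to at most 39.1 CPM, in CTC replicate 3, and the 2 endothelial markers to at most 1.88 CPM. The fibroblast sum was mostly Pdgfra, with 989 counts in CTC replicate 3, while Col1a1 and Col1a2 had at most 44 and 22 counts in any library. The DNA of these cells was not analysed here.

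The block joins 2 well-known stretches. Around Lamp1 lie Cul4a, the scaffold of a ubiquitin ligase, and Tfdp1, the partner of the E2F factors that drive entry into S phase. Further along lie the neighbours of the growth factor receptor gene Fgfr1, whose human relatives sit in a segment that is often amplified in breast cancer; they include the chromatin genes Nsd3 and Ash2l, the transcriptional regulator Zfp703 and the membrane protease Adam9. Between the stretches lies a large cluster of defensins, antimicrobial peptides made by epithelia.

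The promoters of 3 members that were highest in PT replicate 3 are shown with that of Gas6, whose level differed most between libraries among the 66 better expressed members, and of a defensin with no read, because expressed and silent members of the block differed in the CpG content of these stretches. Each is the 250 bases before the transcription start, from RefSeq on GRCm38.p6, with CpG dinucleotides in capitals: Cul4a (chr8:13105373-13105622, plus strand), Cdc16 (chr8:13757406-13757655, plus strand), Upf3a (chr8:13785365-13785614, plus strand), Gas6 (chr8:13494536-13494785, minus strand) and Defb38 (chr8:19026569-19026818, minus strand).
Cul4a: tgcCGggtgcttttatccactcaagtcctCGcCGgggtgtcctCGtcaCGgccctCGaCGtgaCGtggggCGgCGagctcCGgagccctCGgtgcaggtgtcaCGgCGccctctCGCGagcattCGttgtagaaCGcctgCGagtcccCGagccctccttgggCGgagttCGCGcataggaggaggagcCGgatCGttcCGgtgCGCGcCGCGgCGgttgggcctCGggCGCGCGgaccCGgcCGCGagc
Cdc16: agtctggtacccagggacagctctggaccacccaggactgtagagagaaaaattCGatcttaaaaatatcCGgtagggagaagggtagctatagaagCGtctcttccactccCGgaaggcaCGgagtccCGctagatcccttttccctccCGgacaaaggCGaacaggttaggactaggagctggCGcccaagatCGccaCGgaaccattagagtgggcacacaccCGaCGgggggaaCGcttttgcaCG
Upf3a: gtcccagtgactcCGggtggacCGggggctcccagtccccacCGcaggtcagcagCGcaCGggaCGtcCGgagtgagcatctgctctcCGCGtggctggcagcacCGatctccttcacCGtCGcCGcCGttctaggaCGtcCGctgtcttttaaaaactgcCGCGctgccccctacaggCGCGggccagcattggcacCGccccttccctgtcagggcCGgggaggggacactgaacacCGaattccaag
Gas6: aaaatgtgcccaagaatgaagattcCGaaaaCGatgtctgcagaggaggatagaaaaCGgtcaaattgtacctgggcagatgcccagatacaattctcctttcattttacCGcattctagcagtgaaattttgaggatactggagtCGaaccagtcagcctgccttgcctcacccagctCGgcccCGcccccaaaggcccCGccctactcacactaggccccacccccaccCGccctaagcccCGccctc
Defb38: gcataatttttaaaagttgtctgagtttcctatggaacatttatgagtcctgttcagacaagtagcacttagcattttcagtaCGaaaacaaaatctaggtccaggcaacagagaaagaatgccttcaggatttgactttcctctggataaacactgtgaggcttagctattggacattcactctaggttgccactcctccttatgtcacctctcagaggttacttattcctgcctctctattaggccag
These hold 38, 15, 23, 10 and 1 CpG. The RefSeq table held promoters for 25 of the 77 tested members and 48 of the 108 others, all of genes that start at or before 22.38 Mb. The median was 17 CpG in the tested members, 1 in the untested members and 6 over all 32851 promoters of the table. The letters GGGCGG, on either strand, were found in 17 of the 25 (68.0%), in 2 of the 48 (4.2%) and in 32.7% of all promoters. The letters TATAAA, on either strand, were found in 1 of the 25 (4.0%), in 15 of the 48 (31.2%) and in 12.4% of all promoters. The 2 motifs do not overlap in sequence, and a match describes letters, not a bound factor.

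The members stood highest in PT replicate 3 and lowest in CTC replicates 1 and 2. Each member's log2 CPM was set against its own mean over the 6 libraries, and the median of this deviation over the 77 tested members was 0.75 in PT replicate 3. It was -0.44 in CTC replicate 1 and -0.39 in CTC replicate 2, both below the mean of the libraries. It was 0.15 in CTC replicate 3, -0.13 in PT replicate 1 and -0.01 in PT replicate 2, while over all 13874 genes tested the medians lay between -0.03 and 0.04. Each library is 1 sample, so these values have no replicate check.

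**Figure D1:**
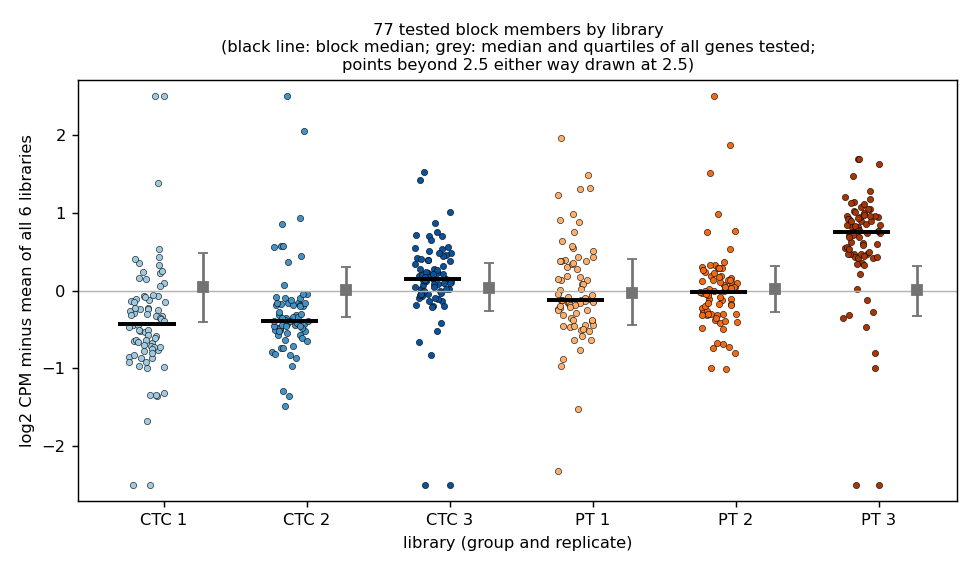
Each point is 1 of the 77 tested block members; the vertical axis is its log2 CPM minus its mean over all 6 libraries, the black line is the block median and the grey square with bars gives the median and quartiles of all 13874 genes tested. The PT replicate 3 points centre on 0.75 and those of CTC replicates 1 and 2 on -0.44 and -0.39.

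In PT replicate 3, 68 of the 77 members lay above their mean, against 50.3% of all genes tested, and 9 below it, against 49.7%. There, 52 members lay more than 0.5 above their mean, against 15.4% of all genes, and 4 lay more than 0.5 below it, against 16.6%. PT replicate 3 was the highest of the 6 libraries for 56 members (14.7% of all genes). In CTC replicate 1, 62 members lay below their mean (47.5% of all genes), 36 lay more than 0.5 below their mean (20.6% of all genes), and it was the lowest library for 37 (22.9%). In CTC replicate 2, 67 lay below their mean (48.8%), 22 lay more than 0.5 below (17.9%), and it was the lowest for 19 (13.8%). Above the mean in PT replicate 3 and below it in both CTC replicate 1 and CTC replicate 2 were 54 members, against 17.1% of all genes. These counts describe the pattern that chose the block.

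Among the 66 members with a mean log2 CPM over 3, the level in PT replicate 3 was a median of 1.86 times the mean of the other 5 libraries, with an upper quartile of 2.18. It was over 1.5 times that mean for 49 members, over 2 times for 24 members and below it for 4. These 66 members had an SD of the deviation of 0.44 in PT replicate 3, beside 0.57 over all genes above the same level. The block was chosen because its genes deviated together, so the smaller SD describes that choice. Cln8 and Arhgef10, at -4.775 and -4.104 in PT replicate 3, lie below that level and are not in the SD. The 11 tested members at or below that level had a median deviation of 0.02 in PT replicate 3. Counts of 44 tested members could include reads of a gene that overlaps them, since the strand of the counting is not given; the median in PT replicate 3 was 0.74 for the 33 members without an overlap and 0.76 for the 44.

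**Figure D2:**
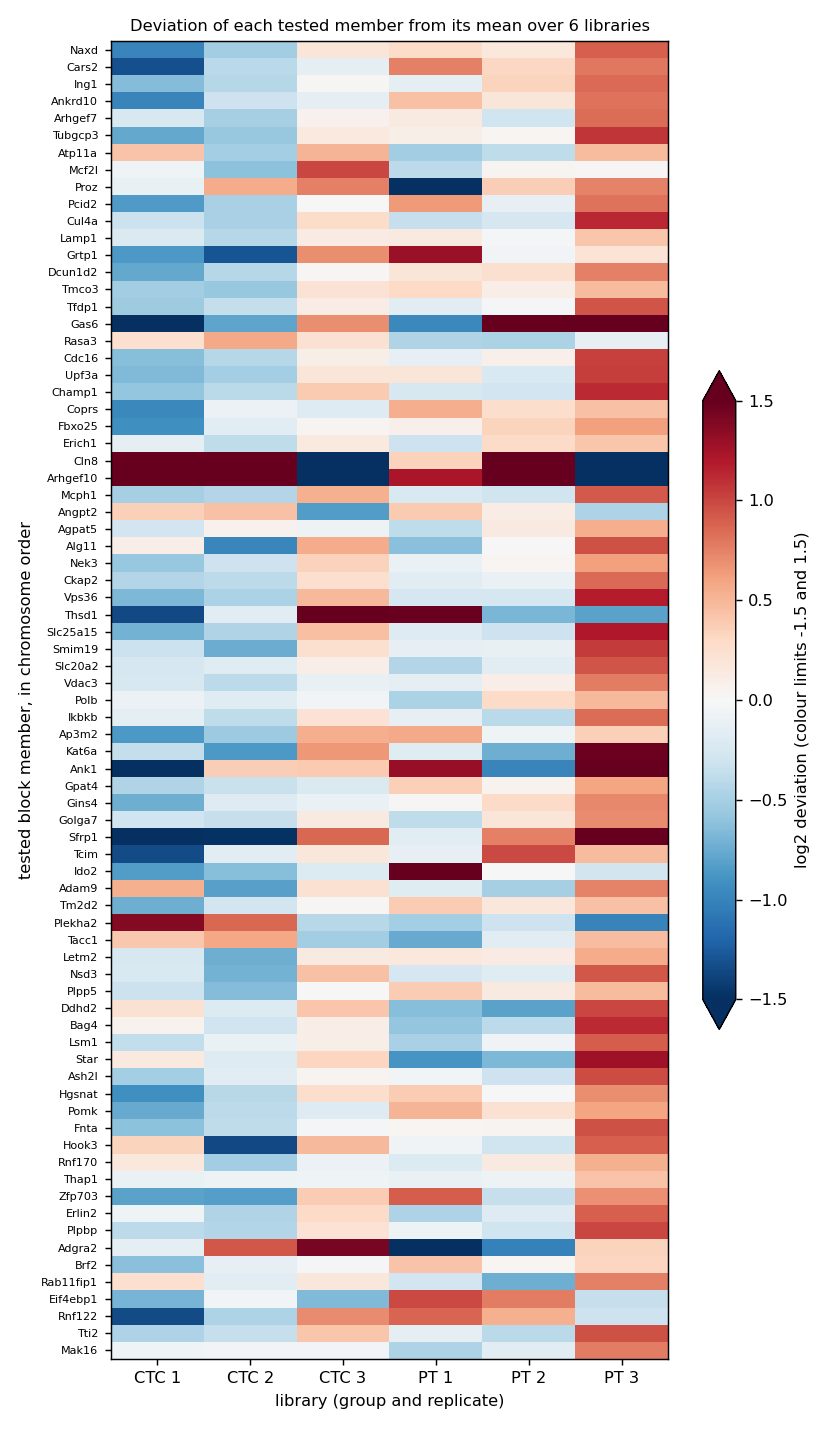
Rows are the 77 tested members in chromosome order and columns are the 6 libraries; colour gives the log2 deviation from the member's mean, with colour limits at -1.5 and 1.5. The PT replicate 3 column is red for 68 of the 77 members, and Cln8 and Arhgef10 are dark blue in both replicate 3 columns.

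Genes of cell division and DNA repair followed the block closely: all 10 tested members of the list were highest in PT replicate 3 and below their mean in CTC replicates 1 and 2. With values always in the order of replicates 1, 2 and 3, Cul4a was at 201, 181 and 307 CPM across the CTC libraries and 198, 212 and 554 CPM across the PT libraries. The level in PT replicate 3 was 2.52 times the mean of the others, and the groups overlapped. Tfdp1 was at 434, 489.6 and 676 CPM across the CTC libraries and 564, 622 and 1210.3 CPM across the PT libraries. Cdc16, a subunit of the anaphase-promoting complex, was at 144, 166 and 238 CPM across the CTC libraries and 205, 236 and 454 CPM across the PT libraries. Both were again highest in PT replicate 3 and lowest in CTC replicate 1. Polb, the DNA polymerase of base excision repair, was flatter, at 49.5, 46.4 and 51.1 CPM across the CTC libraries and 38.0, 64.3 and 73.9 CPM across the PT libraries. The list's median deviation was 0.94 in PT replicate 3, -0.55 in CTC replicate 1 and -0.40 in CTC replicate 2.

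In the chromatin and transcription list, all 10 tested members were above their mean in PT replicate 3, by a median of 0.83, and below it in CTC replicates 1 and 2, and 8 of the 10 were highest in PT replicate 3. Kat6a, a histone acetyltransferase, was at 101, 71.2 and 204 CPM across the CTC libraries and 114, 77.9 and 359 CPM across the PT libraries. Its level in PT replicate 3 was 3.16 times the mean of the other libraries, and both replicate 3 libraries lay above the other 4. Nsd3, a histone methyltransferase, was at 98.9, 70.9 and 157 CPM across the CTC libraries and 97.4, 102 and 220.0 CPM across the PT libraries, also highest in the replicate 3 libraries. Ash2l, a core subunit of histone H3 methyltransferase complexes, was at 141, 180.4 and 207 CPM across the CTC libraries and 196, 162 and 395 CPM across the PT libraries. Ing1, a reader of histone marks, was at 80.4, 93.8 and 127 CPM across the CTC libraries and 115, 159 and 227 CPM across the PT libraries. Ankrd10 was at 86.0, 137 and 155 CPM across the CTC libraries and 231, 194 and 299 CPM across the PT libraries, with every CTC library below every PT library. Zfp703 and Brf2 were the 2 exceptions to the peak in PT replicate 3. Zfp703 was highest in PT replicate 1, at 124.8 CPM against 106.4 CPM in PT replicate 3, and Brf2, a subunit of an RNA polymerase III initiation factor, was at 45.0 and 42.0 CPM in these libraries.

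Genes of membrane traffic, metabolism and RNA handling also followed. In the traffic and transport list, 13 of 13 tested members were above their mean in PT replicate 3 and 11 were highest there. Lamp1, a major glycoprotein of the lysosomal membrane, was at 1212, 1051 and 1539 CPM across the CTC libraries and 1551, 1384 and 1892 CPM across the PT libraries. Its ratio of 1.40 in PT replicate 3 was low for the block. Golga7, a partner of a palmitoyltransferase, was at 138, 134 and 186 CPM across the CTC libraries and 131, 194 and 279 CPM across the PT libraries. Vdac3, a channel of the outer mitochondrial membrane, was at 333, 300.2 and 364 CPM across the CTC libraries and 358, 423 and 672 CPM across the PT libraries. Slc25a15, the mitochondrial ornithine carrier, had a ratio of 2.63, with 26.3, 31.4 and 58.9 CPM across the CTC libraries and 37.5, 34.6 and 99.2 CPM across the PT libraries. Atp11a, a phospholipid flippase, departed: it was at 996, 518 and 1049.5 CPM across the CTC libraries and 514, 566 and 1024 CPM across the PT libraries, with CTC replicates 1 and 3 near the level of PT replicate 3.

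Of 12 tested genes of lipid and small-molecule metabolism, 11 were highest in PT replicate 3, with a median deviation of 0.89. Fnta, a subunit of the enzymes that attach farnesyl and geranylgeranyl groups to proteins, was at 101, 118 and 152 CPM across the CTC libraries and 157, 159 and 299.8 CPM across the PT libraries. Gpat4, which starts triglyceride synthesis, was at 215, 232 and 252 CPM across the CTC libraries and 376, 303 and 441 CPM across the PT libraries. Every CTC library was below every PT library for both. Erlin2, a protein of the endoplasmic reticulum membrane, was at 153, 117 and 194 CPM across the CTC libraries and 116, 139 and 296 CPM across the PT libraries. Of the 5 RNA handling genes 4 were highest in PT replicate 3. Upf3a, of the nonsense-mediated decay pathway, was at 52.6, 58.6 and 94.5 CPM across the CTC libraries and 94.4, 71.2 and 172 CPM across the PT libraries. Pcid2, of the mRNA export machinery, was at 58.9, 76.3 and 106 CPM across the CTC libraries and 166, 98.1 and 188 CPM across the PT libraries. The fifth gene, Eif4ebp1, is described below.

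Signalling genes had the lowest median of the lists in PT replicate 3. Of 13 tested members, 8 were above their mean in PT replicate 3, by a median of 0.34 over the list, and 4 were highest there. The list includes members with a mean log2 CPM at or below 3, a level at which the block's 11 tested members had a median of 0.02 there. Whether expression level accounts for the low list median was not tested. Ikbkb, a kinase of the NF-kB pathway, kept to the block, at 94.5, 79.6 and 121 CPM across the CTC libraries and 95.6, 78.2 and 185 CPM across the PT libraries. Gas6, the ligand of the TAM receptor kinases, had the widest range of the 66 members above a mean log2 CPM of 3, with a highest library 76.3 times its lowest. It was at 8.31, 51.2 and 143 CPM across the CTC libraries and 45.1, 634 and 272 CPM across the PT libraries, with its peak in PT replicate 2. Sfrp1, a secreted inhibitor of Wnt signalling, had a range of 10.3 times, with 50.6, 58.0 and 294 CPM across the CTC libraries and 144, 273 and 521 CPM across the PT libraries. Ank1, a membrane skeleton adaptor that is in no role list, ranged 23.4 times, from 1.10 CPM in CTC replicate 1 to 25.7 CPM in PT replicate 3. The median range over these 66 members was 2.82 times.

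Some expressed members went against the block in PT replicate 3 or in CTC replicates 1 and 2. Plekha2, an adaptor that binds membrane phosphoinositides, was at 131, 91.3 and 37.8 CPM across the CTC libraries and 35.3, 40.6 and 25.2 CPM across the PT libraries, so it was lowest where the block was highest. Rasa3, a GTPase-activating protein of Ras and Rap, was at 131, 165 and 130.3 CPM across the CTC libraries and 81.4, 79.8 and 102 CPM across the PT libraries, with every CTC library above every PT library. Eif4ebp1, a translation repressor, was at 184, 290.1 and 189 CPM across the CTC libraries and 594, 509 and 235 CPM across the PT libraries. PT replicates 1 and 2 were its highest libraries, while its neighbour Rab11fip1 was highest in PT replicate 3 at 88.3 CPM. Tacc1, a centrosomal coiled-coil protein, was at 17.6, 19.9 and 9.27 CPM across the CTC libraries and 7.82, 11.8 and 18.4 CPM across the PT libraries. It was above its mean in PT replicate 3, by 0.465, as the block was. It departed in CTC replicates 1 and 2, where it was above its mean by 0.407 and 0.578. The 36 tested members not named here ranged from -0.81 (Thsd1) to 1.27 (Star) in their deviation in PT replicate 3, with a median of 0.62, and 27 of them were highest there.

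Cln8 and Arhgef10, neighbours that start at 14.88 and 14.91 Mb, were nearly absent from both replicate 3 libraries. They were picked out after their values were seen. Cln8, a gene of an endoplasmic reticulum membrane protein, had 551, 467 and 2 reads across the CTC libraries and 70, 183 and 0 across the PT libraries. Arhgef10 had 636, 205 and 1 reads across the CTC libraries and 125, 136 and 1 across the PT libraries. The 3 counts that limit a value of 0 correspond to 0.126 CPM in PT replicate 3, and Cln8 was at 19.6 CPM in CTC replicate 1. The next tested genes on both sides had reads in the same libraries: Erich1, which starts at 14.03 Mb, had 596 counts in CTC replicate 3 and 679 in PT replicate 3, and Mcph1, at 18.60 Mb, had 2920 and 3595. A second pair of neighbours, the collagen IV chain genes Col4a1 and Col4a2, lies just before the block and had 3 counts each in PT replicate 3. There the matched CTC library was not low, with 5598 and 3735 counts.

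**Figure D3:**
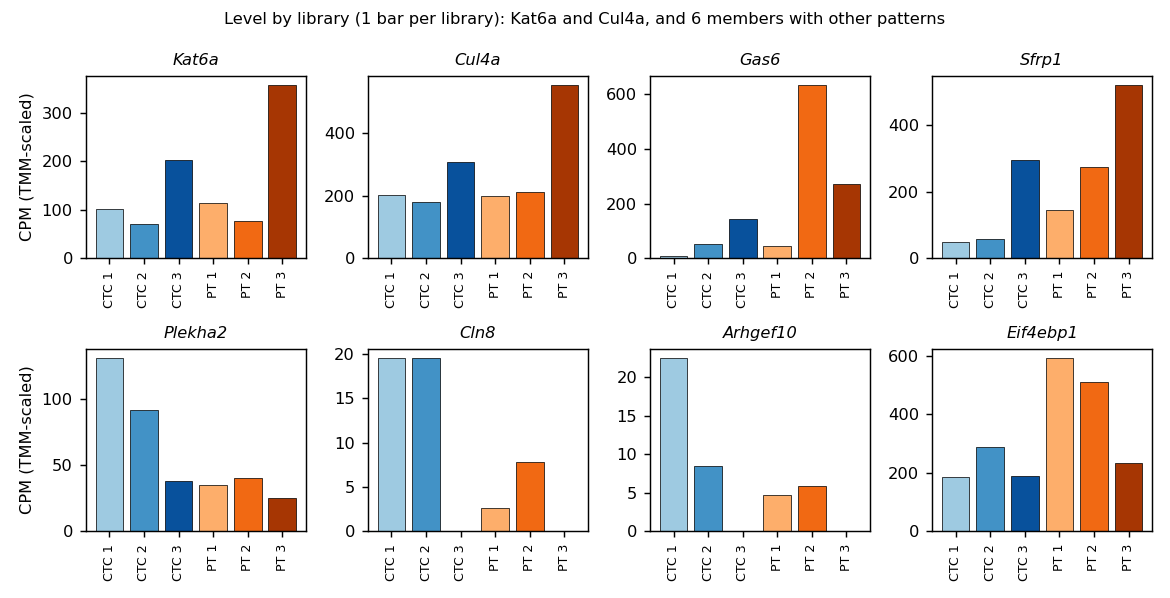
Bars give the TMM-scaled CPM of 8 block members in each of the 6 libraries, 1 bar per library, on linear axes that start at 0. Kat6a and Cul4a peak in PT replicate 3, Cln8 and Arhgef10 are at or near 0 in both replicate 3 libraries, and Plekha2 is lowest in PT replicate 3 at 25.2 CPM.

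Of the 21 listed genes whose human relatives lie in the segment often amplified in breast cancer, 19 were tested, 17 were above their mean in PT replicate 3 and 13 were highest there. Their median deviation in PT replicate 3 was 0.74, beside 0.75 for the whole block. In the CTC libraries it was -0.23 in replicate 1 and -0.20 in replicate 2, both nearer 0 than the -0.44 and -0.39 of the block. Below their mean were 12 of 19 in replicate 1 and 16 of 19 in replicate 2, beside 62 and 67 of the 77 block members. In PT replicate 2 the list's median was -0.30, beside -0.01 for the block. These differences were not tested. Adam9 was at 138, 54.1 and 111 CPM across the CTC libraries and 83.8, 67.7 and 159 CPM across the PT libraries. Fgfr1, which the rule leaves out, had a far wider range than its neighbours, at 23.1, 109 and 499 CPM across the CTC libraries and 1089.7, 714 and 1237 CPM across the PT libraries. Plat, tissue plasminogen activator, also left out, was highest in PT replicate 1 at 47.0 CPM and stood at 9.75 CPM in PT replicate 3.

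The untested members were mostly silent. Of the 108, 69 had no read in any library and none had more than 68 counts over all 6. None of the 46 defensin genes was tested: 43 had no read and the other 3 had 11 counts together. Of the 8 surface protease and coagulation genes only Adam9 and Proz were tested; the coagulation gene Proz reached 0.59 CPM at most. Members that passed the filter can have done so through the libraries in which they were high, so the counts above do not extend to all 185.

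The pattern was similar in both long stretches of the block and mixed in the 5 tested members between them. The 24 tested members from Naxd to Erich1 had a median deviation of 0.80 in PT replicate 3, -0.64 in CTC replicate 1 and -0.43 in CTC replicate 2. The 45 from Alg11 to Eif4ebp1 had 0.74, -0.35 and -0.38. Between them, the 5 from Cln8 to Agpat5 had medians of -0.47, 0.36 and 0.44. These are the values of a single member with 48 counts in PT replicate 3. That member, Cln8 and Arhgef10 had a mean log2 CPM below 3. Mcph1 and Agpat5 were above that level and highest in PT replicate 3. In the same order of libraries, Mcph1 had 0.92, -0.50 and -0.44, and Agpat5 had 0.55, -0.29 and 0.07. The 3 last members, Rnf122, Tti2 and Mak16, had deviations of -0.32, 0.96 and 0.76 in PT replicate 3. At the other end, Naxd, Cars2 and Ing1, the first 3 members, had 0.89, 0.80 and 0.85. Just outside, Rab20 was at -0.02 and Fut10 at -0.05 in PT replicate 3, while Col4a1, Col4a2 and Nrg1 were at -8.03, -8.14 and -3.08 and Wrn at 0.74.

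The high values of PT replicate 3 reached beyond the block, whereas the low values of CTC replicate 1 kept closer to it. The median over 9 neighbouring tested genes stayed above 0.25 in PT replicate 3 from Zfp958 at 4.61 Mb to Fat1 at 44.94 Mb, over 127 genes. In CTC replicate 1 it stayed below 0 from Irs2 at 10.98 Mb to Nrg1 at 31.81 Mb, over 86 genes, and in CTC replicate 2 from 4.29 to 45.95 Mb. Such a median blurs each edge by up to 4 genes. Before the block, the 9 tested genes from Efnb2 to Rab20 had a median of 0.76 in PT replicate 3, 0.21 in CTC replicate 1 and -0.24 in CTC replicate 2. In PT replicate 3, 5 of them lay above their mean and 4 below. Arglu1, Lig4 and Abhd13 had deviations of 1.36, 0.91 and 1.21 there, while Irs2, nearer the block, was at -2.44. After it, the 24 tested genes from Fut10 to Tusc3 had a median of 0.59 in PT replicate 3, 0.01 in CTC replicate 1 and -0.12 in CTC replicate 2. Pooled, the 533 tested genes beyond Tusc3 had medians of the opposite signs to the block, with -0.15 in PT replicate 3, 0.27 in CTC replicate 1 and 0.25 in CTC replicate 2. The first of these genes still fell in the runs given above, which end at 44.94 Mb in PT replicate 3 and 45.95 Mb in CTC replicate 2. As whole chromosomes, the medians in PT replicate 3 lay between -0.40 (chromosome 10) and 0.34 (chromosome 18), with chromosome 8 at -0.09. They pool 300 to 1019 genes each, so they do not show how stretches of the block's size vary elsewhere.

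**Figure D4:**
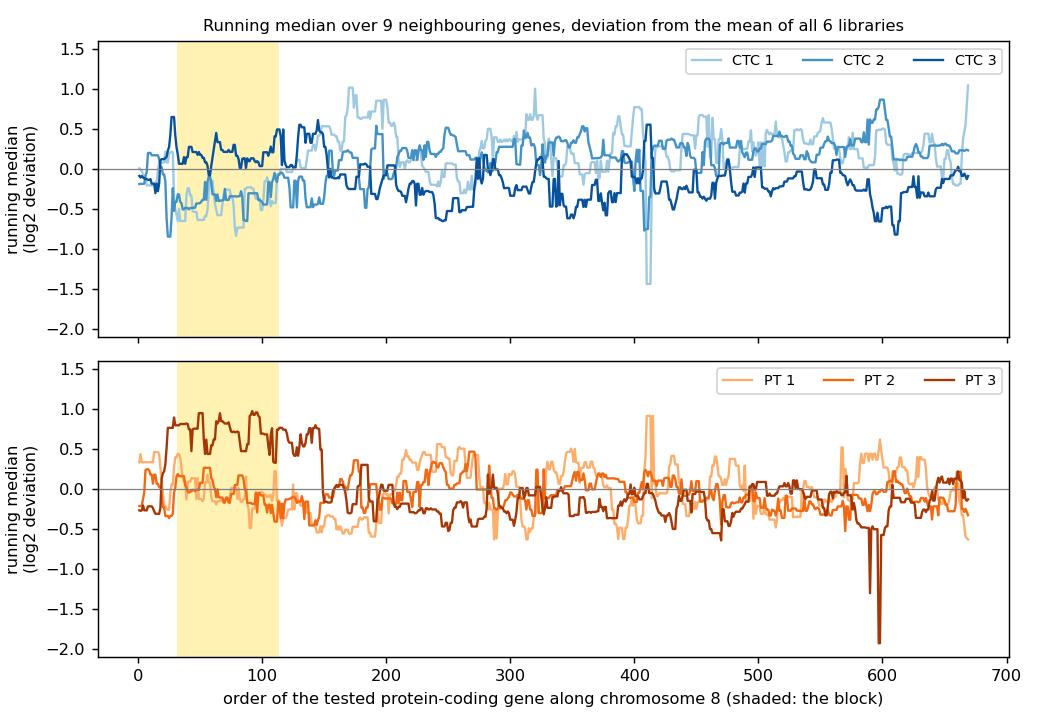
The horizontal axis is the order of the 669 tested protein-coding genes of chromosome 8 with the block shaded, and the vertical axis is the median log2 deviation over 9 neighbouring genes in each library, CTC above and PT below. PT replicate 3 stays above 0.25 across the block and on both sides of it, and CTC replicates 1 and 2 stay below 0 across the block.

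Genes of other kinds in the same stretch, which the rule did not use, gave similar medians in some libraries. The 27 tested noncoding genes and pseudogenes had a median deviation of 1.00 in PT replicate 3, 0.65 in CTC replicate 3 and -0.65 in CTC replicate 2, but -0.07 in CTC replicate 1 and -0.55 in PT replicate 1. In PT replicate 3, 21 of the 27 lay more than 0.5 above their mean, against 15.4% of all genes tested. That share mostly describes protein-coding genes, of which 1675 of 12019 lay that far above, within 2138 of 13874 for all genes. It was therefore higher among genes of other kinds, for which it was not computed alone. Only these 27 of the 273 noncoding genes and pseudogenes in the stretch passed the filter on low counts. They can have done so through the libraries in which they were high, so the count does not extend to the others. Many are pseudogenes or have low counts, so their values are uncertain. Some lie within block members, such as Gm17022 in Pcid2 and Gm17491 in Slc20a2. The strand of the counting is not given, so their counts could include reads of those members, and they are not independent of the block. Mrps31, a mitochondrial ribosomal protein gene inside the block that the rule leaves out, had 0.82 in PT replicate 3 and -0.70 in CTC replicate 1.

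Within matched libraries, block members were lower in CTC than in PT by their median in each pair. The median log2 difference, CTC minus PT, over the 77 members was -0.36 in pair 1, -0.35 in pair 2 and -0.60 in pair 3, against 0.08, -0.01 and -0.00 over all genes tested. CTC was lower for 50, 58 and 65 of the 77 members in pairs 1, 2 and 3. It was lower in all 3 pairs for 39 members, against 15.3% of all genes, and higher in all 3 for 5, against 15.4%. The rest of chromosome 8 had medians of 0.24, 0.26 and -0.09. Among members above a mean log2 CPM of 3, the quartiles in pair 3 were -0.83 and -0.42, narrower than the -1.04 and 0.11 of pair 1. These differences use the values that chose the block and carry no test.

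**Figure D5:**
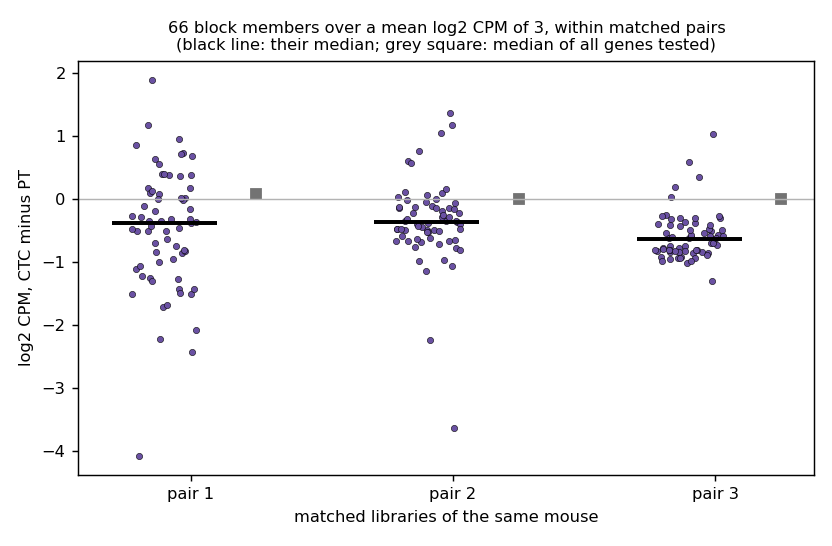
Points are the 66 block members above a mean log2 CPM of 3. The vertical axis is log2 CPM in CTC minus PT for each matched pair of libraries. The black line is the median of these members and the grey square the median of all 13874 genes. The medians of these members are -0.38, -0.37 and -0.63 in pairs 1, 2 and 3.

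Between the groups, no member passed the test. edgeR's quasi-likelihood test with Benjamini-Hochberg adjustment called 0 of the 77 members and 0 of the 13874 genes (0%), with a smallest adjusted p of 0.726 among members. At an unadjusted p under 0.05 it gave 10 members lower in CTC, against 3.31% of all genes, and 2 higher, against 460 of the 13874 genes. All genes held 919 such genes in either direction. The median log2 fold change, CTC minus PT, was -0.50 over the members and 0.05 over all genes, and 64 of the 77 members were below 0 (45.9% of all genes). Every CTC library lay below every PT library for 12 members, against 6.16% of all genes, and above for 1, Rasa3, against 5.95%. Without PT replicate 3 the median log2 fold change of the members was -0.13, and without CTC replicate 3 it was -0.75. These shares and medians use the library values that chose the block, so they are no check independent of that choice.

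Among members at an unadjusted p under 0.05, Cars2, the mitochondrial cysteinyl-tRNA synthetase, averaged 37.3 ± 14.2 CPM over the CTC libraries against 84.4 ± 15.0 CPM over the PT libraries (SD, n = 3 each; log2 fold change -1.18, SE 0.35, edgeR adjusted p = 0.726). Eif4ebp1 averaged 221 ± 59.8 CPM over the CTC libraries against 446 ± 188 CPM over the PT libraries (SD; log2 fold change -1.01, SE 0.40, edgeR adjusted p = 0.726). Plekha2 averaged 86.7 ± 46.8 CPM over the CTC libraries against 33.7 ± 7.83 CPM over the PT libraries (SD; log2 fold change 1.36, SE 0.46, edgeR adjusted p = 0.726). The first and the second were lower in CTC and the last was higher. DESeq2 called no member without the pairing, among 91 genes called in all (0.631%). With the replicate number as a block DESeq2 called 253 genes (1.87%), 3 of them members: Gas6 (adjusted p = 0.00103) and Sfrp1 (adjusted p = 0.00813) lower in CTC, and Cln8 higher (adjusted p = 0.042). edgeR with the same block called 0 members, with a smallest adjusted p of 0.743.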

How the data were processed

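What the authors deposited is a single table of unnormalized counts by gene, with positions and lengths, for 6 libraries. HISAT2, GRCm38 and mm10 are named per the submitters' processing notes; the version, counter, annotation and strand setting were not stated there. All 185 members had the same coordinates in GENCODE M21. Library totals are given in the report, and intervals or floors cover counting error only.

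Counts were filtered with filterByExpr by group and scaled by TMM in edgeR (version 4.0.16, R version 4.3.3). CTC and PT were compared with glmQLFit and glmQLFTest on 13874 genes, adjusted by Benjamini-Hochberg over all of them at a threshold of 0.05; the standard error was derived from F. Deviations are log2 CPM (prior count 2) minus the mean of all 6 libraries. DESeq2 (version 1.42.0), a replicate block, other scalings, filters, references, block ends, trends on gene length and GC content, and leaving out libraries were alternatives. The tests were also run on simulated counts with known changes. Recovery was required only of edgeR, at a low set dispersion. This does not show what the tests can detect at the spread of these data.

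The labels match same-numbered libraries, and the series' design text speaks of matched mice, which was read as 1 mouse per number and pairs the samples; their deviations from group means correlated across genes at -0.015, 0.157 and 0.298 for replicates 1, 2 and 3. No pair of libraries agreed within sampling noise (chi-square per degree of freedom at least 100.1). The labels call the replicates biological, without saying more of their origin.

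Members, lists and tests were chosen with earlier results of these data known. The naming rule took the 3 highest tested members per role list, the 5 highest and the 5 lowest deviations in PT replicate 3 among members with a mean log2 CPM over 3, the genes at and beyond the ends, and a fixed set; Cln8, Arhgef10, Rab11fip1, Mcph1, Erich1, Arglu1, Lig4 and Abhd13 were added after their values were seen.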

Additional observations from a re-analysis of the deposited data

How the results depend on the processing

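The median deviation of the block in PT replicate 3 ranged from 0.57 to 0.90 over 12 other scalings, filters, references, trend corrections and gene overlaps, lowest without a filter on low counts, and was 0.66 with GC and gene length trends removed. It was 0.77, 0.74 and 0.73 in the 3 parts of the block by position, and 0.72 with both ends moved by 1 Mb inward or outward. In CTC replicates 1 and 2 the medians ranged from -0.61 to -0.32 and from -0.47 to -0.27 over the same 12. Leaving out 1 library at a time gave 0.63 to 0.76 in PT replicate 3, -0.54 to -0.27 in CTC replicate 1 and -0.47 to -0.22 in CTC replicate 2. The medians of PT replicates 1 and 2 changed sign among settings, from -0.19 to 0.08 and from -0.09 to 0.04. The median log2 fold change of the members, CTC minus PT, was -0.42 with the replicate block and -0.32 without replicate 3 of both groups, and ranged from -0.75 to -0.13 without single libraries. The trend on GC content, the overlap of genes, DESeq2 with the block and the removal of replicate 3 were chosen after seeing the data.

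The count of genes called was 0 in edgeR with the replicate block, with RLE scaling and without each library in turn; it was 199 without a filter on low counts, none of them a member, 91 in DESeq2 and 253 in DESeq2 with the replicate block, which called 3 members. The cause of these differences was not tested. Of the 36 named members, 10 changed the sign of their log2 fold change in some setting, none of them called. Leaving out 1 library at a time gave at the other extreme -0.75 for Cul4a, -1.09 for Kat6a, -0.49 for Erlin2, -0.33 for Adam9, -0.72 for Nsd3, -0.53 for Ikbkb, -0.99 for Slc25a15, -0.67 for Tti2, -0.42 for Mak16 and 1.09 for Proz. Without PT replicate 3, Cul4a was at 0.16, Kat6a at 0.39, Erlin2 at 0.27, Adam9 at 0.41, Nsd3 at 0.13, Ikbkb at 0.18, Slc25a15 at 0.11, Tti2 at 0.19 and Mak16 at 0.25. Adam9 was at 0.25 without CTC replicate 2, and Proz at -0.14 without PT replicate 1. Without replicate 3 of both groups Erlin2, Adam9 and Mak16 were at 0.07, 0.34 and 0.24. Each group has 3 libraries and each library deviation is 1 sample, and low members rest on few counts, which limits their precision.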
